A study of Oryza sativa Japonica Group with 6 samples.

Results

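The cellulose synthase genes described here are 9 rice loci named by a published numbering, CESA1 to CESA9, out of 55801 loci in the deposited tables. They fall into 6 genes assigned to primary walls (CESA1, CESA2, CESA3, CESA5, CESA6 and CESA8) and 3 assigned to secondary walls (CESA4, CESA7 and CESA9). The loci were taken by identifier: LOC_Os05g08370 for CESA1, LOC_Os03g59340 for CESA2, LOC_Os07g24190 for CESA3, LOC_Os01g54620 for CESA4, LOC_Os03g62090 for CESA5, LOC_Os07g14850 for CESA6, LOC_Os10g32980 for CESA7, LOC_Os07g10770 for CESA8 and LOC_Os09g25490 for CESA9. All 9 had reads in every library and passed the filter on low counts.

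Poly(A) RNA was sequenced from material described as whole seedlings, 14 days old and untreated, of the rice cultivar Nipponbare (Oryza sativa). The osino80 group carried the allele osino80-2 of OsINO80, which encodes the motor subunit of a chromatin remodelling complex, and the WT group was wild-type Nipponbare, with 3 libraries each. The labels give a single mutant allele without its lesion. They do not say that the libraries stem from different plants, so a p-value here sets a difference against library-to-library spread alone, and that spread may be technical.

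Cellulose is spun out at the plasma membrane by rosette-shaped complexes in which several different CESA proteins sit side by side, each adding glucose from UDP-glucose to a growing chain. Cells that are still enlarging lay down a thin primary wall with one set of CESA proteins. Xylem vessels, fibres and other cells that have stopped growing add a thick secondary wall with another set. In rice, mutations in CESA4, CESA7 or CESA9 give brittle culms with less cellulose in the secondary wall. The chromatin remodeller itself slides nucleosomes and acts on many genes.

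Total counts were 62239760, 61881971 and 66097710 in osino80 replicates 1 to 3, and 73293481, 69616322 and 61426662 in WT replicates 1 to 3. The cellulose synthase genes took 0.262% to 0.264% of these counts in osino80 and 0.233% to 0.234% in WT. OsINO80, taken as LOC_Os03g22900, had 60.6 ± 0.606 CPM (counts per 1000000) in osino80 and 119 ± 2.43 CPM in WT (SD, n = 3), lower in the libraries labelled osino80. Of the root markers only the silicon transporter gene Lsi1 was above 2 CPM, at 19.7 ± 0.511 in osino80 and 15.4 ± 0.633 in WT, and the Rubisco and chlorophyll-binding genes of green leaf together held 50428 to 51700 TPM (transcripts per 1000000) in osino80 and 50663 to 51238 TPM in WT. The libraries labelled as seedlings therefore carried the defining genes of leaf at high levels and those of root at low ones. RCc3 had 0.158 CPM in osino80 and 0.166 CPM in WT, and PIP2.5 had 0.997 CPM in osino80 and 1.02 CPM in WT. How much root the sampled material held was not tested.

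All 9 cellulose synthase transcripts differed between genotypes, and the 3 secondary-wall genes stood highest among them. CESA4, CESA9 and CESA7 were 1.27-fold, 1.26-fold and 1.19-fold higher in osino80. In the primary-wall class CESA8, CESA5, CESA3 and CESA1 were 1.14-fold to 1.09-fold higher, whereas CESA6 and CESA2 were lower, at 0.901 and 0.942 of the WT level. All differences were below 1.5-fold. The test was edgeR's quasi-likelihood test on counts, with p-values adjusted over all 24914 tested genes by the Benjamini-Hochberg method, and 0.05 as the threshold for a call. Of all tested genes 37.6% passed it, 18.4% as higher and 19.1% as lower. Abundant genes passed more often, and every cellulose synthase gene averaged above 50 CPM. Among the 4231 tested genes with a mean of at least 50 CPM, 62.6% passed, 27.9% as higher and 34.7% as lower. Passing the test was thus common at this abundance; of the cellulose synthase genes 7 were higher and 2 lower. The median log2 fold change was 0.34 over the 3 secondary-wall genes and 0.12 over the 6 primary-wall genes, beside 0.00 over all tested genes and -0.01 over the abundant ones. Regardless of sign, the median size of the log2 fold change was 0.16 over all tested genes and 0.10 over the abundant ones. By size CESA4 and CESA9 stood at percentiles 76.0 and 75.6 of all tested genes, CESA7 at 65.9, CESA8 at 55.3 and CESA6 at 47.3, while CESA5, CESA3, CESA1 and CESA2 stood at 42.4, 40.6, 39.4 and 29.9.

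**Figure D1:**
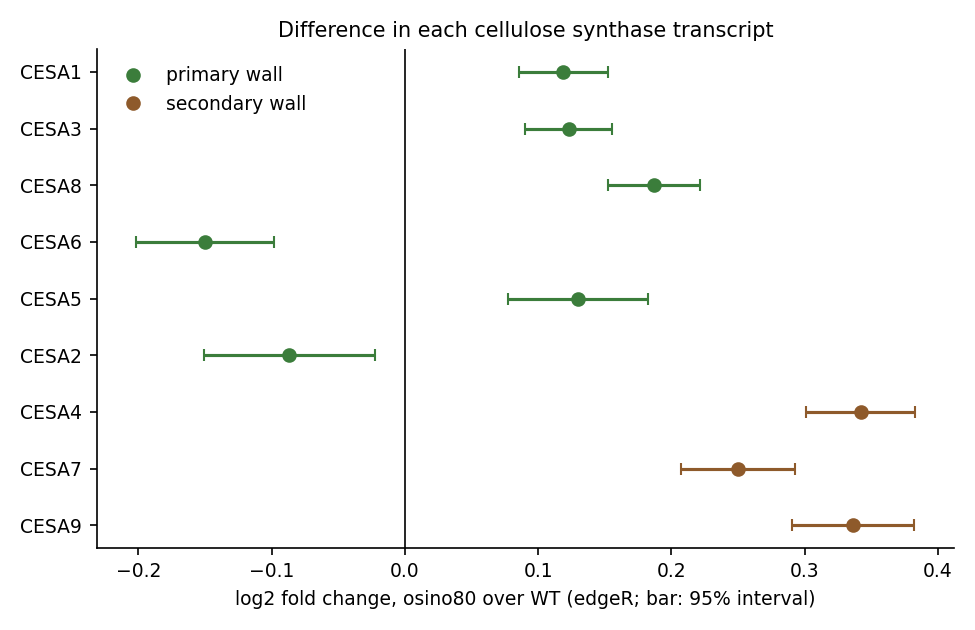
The log2 fold change of each cellulose synthase transcript, osino80 over WT, is plotted on the x axis with its 95% interval from edgeR, with 1 row per gene and colour for the wall class. The 3 secondary-wall genes sit at 0.25 to 0.34, to the right of every primary-wall gene, and CESA6 and CESA2 sit left of 0.

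CESA4, which is mutated in the brittle culm mutants bc7 and bc11, had 116, 122 and 121 TPM in the osino80 libraries, against 93.2, 94.8 and 94.3 TPM in the WT libraries. The lowest osino80 library lay above the highest WT library by more than the whole range within either genotype. The log2 fold change was 0.34 ± 0.02 (SE, edgeR adjusted p = 1.27e-45). CESA9, mutated in the brittle culm mutant bc6, had 75.9, 77.0 and 73.0 TPM in osino80, against 59.0, 60.6 and 58.7 TPM in WT. Again the gap between genotypes exceeded the range within either, with a log2 fold change of 0.34 ± 0.02 (SE), and the adjusted p from edgeR was 1.32e-36. CESA7, the remaining secondary-wall subunit, had 93.4, 93.0 and 93.1 TPM in osino80, against 78.4, 77.0 and 80.3 TPM in WT. The 3 mutant libraries were nearly identical for this gene, with a coefficient of variation of 0.200%, while the WT libraries varied by 2.14%. Its log2 fold change of 0.25 ± 0.02 (SE), with an adjusted p from edgeR of 4.66e-25, was the smallest of the class, and its 95% interval of 0.21 to 0.29 ended below the 0.30 at which that of CESA4 began but overlapped that of CESA9, 0.29 to 0.38, at its end.

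Of the primary-wall genes, 3 made up most of the class. CESA1 had 236, 233 and 232 TPM in osino80, against 217, 214 and 213 TPM in WT. CESA3 had 222, 224 and 224 TPM in osino80, against 204, 206 and 203 TPM in WT. CESA8 had 209, 211 and 213 TPM in osino80, against 185, 184 and 185 TPM in WT. In all 3 genes every osino80 library was above every WT library. CESA1 and CESA3 rose by like amounts, with log2 fold changes of 0.12 ± 0.02 (SE, edgeR adjusted p = 1.38e-10) and 0.12 ± 0.02 (8.76e-12). CESA8 rose further, by 0.19 ± 0.02 (SE, edgeR adjusted p = 2.79e-22), and its 95% interval of 0.15 to 0.22 met that of CESA7 only at its upper end.

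The other primary-wall genes had lower levels and went both ways. CESA5 had 39.6, 41.7 and 41.3 TPM in osino80, against 37.4, 37.7 and 36.6 TPM in WT, a log2 fold change of 0.13 ± 0.03 (SE), and the adjusted p from edgeR was 1.23e-05. CESA6 had 40.9, 41.3 and 40.5 TPM in osino80, against 46.6, 45.0 and 45.3 TPM in WT. Here every mutant library was below every WT library, with a log2 fold change of -0.15 ± 0.03 (SE), and the adjusted p from edgeR was 2.51e-07. CESA2 had 25.7, 26.9 and 27.1 TPM in osino80, against 28.3, 28.1 and 28.1 TPM in WT. It is the least abundant and least certain of the 9, with a log2 fold change of -0.09 ± 0.03 (SE), a 95% interval of -0.15 to -0.02 and an adjusted p from edgeR of 0.0241. Its call was lost without osino80 replicate 1, the library with its lowest TPM (adjusted p = 0.154), without WT replicate 1 (0.0693) or WT replicate 3 (0.0540), and on TPM (0.132 and 0.135 with pseudocounts of 1 and 0.1), with values of 0.0165 to 0.154 across its alternatives. The genotypes did not overlap in TPM for any of the 9 genes, where 43.7% of all tested genes and 64.6% of the abundant ones did not overlap.

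**Figure D2:**
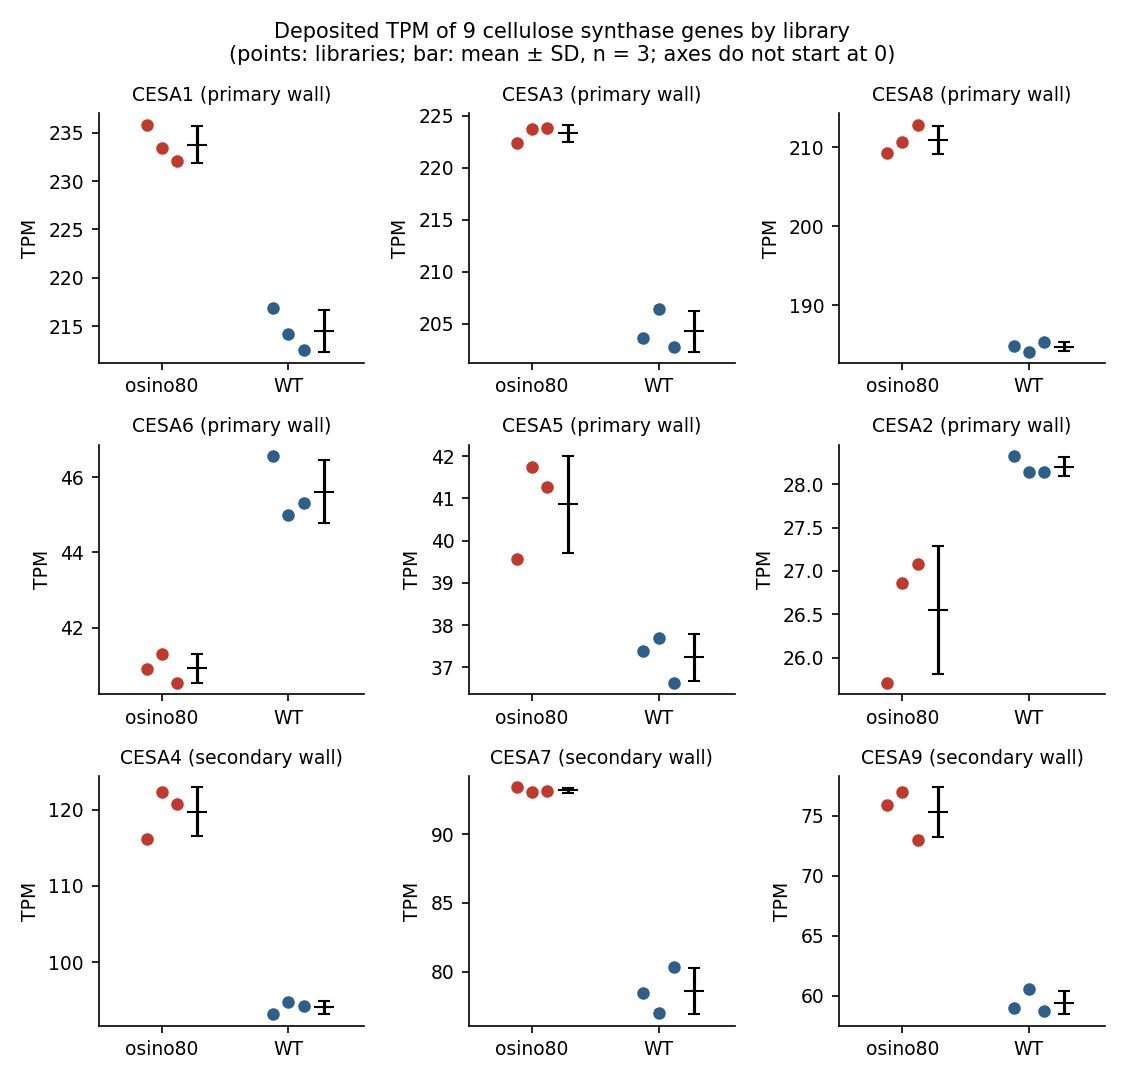
Deposited TPM is plotted for each cellulose synthase gene, with 1 point per library, osino80 in red and WT in blue, and the mean ± SD (n = 3) beside the points; each panel has its own axis, which does not start at 0. In 7 panels the osino80 points lie above the WT points, and in those of CESA6 and CESA2 they lie below.

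The order of the levels, compared between genes in TPM, which accounts for gene length, was the same by mean in both genotypes: CESA1, CESA3, CESA8, CESA4, CESA7, CESA9, CESA6, CESA5 and CESA2, from highest to lowest. In WT the libraries of neighbours in this order did not overlap at any step. In osino80 CESA6 and CESA5 came together, at 40.9 ± 0.384 and 40.9 ± 1.15 TPM (SD, n = 3), and their libraries overlapped. In WT the same genes stood at 45.6 ± 0.835 and 37.2 ± 0.548 TPM (SD, n = 3). Within a genotype the coefficient of variation of TPM ranged from 0.200% to 2.80% over the 9 genes, so that differences of a few percent can exceed the spread.

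The balance between the classes was compared within each library, where scaling between libraries cancels. The 3 secondary-wall genes summed to 286, 292 and 287 TPM in osino80, against 231, 232 and 233 TPM in WT, and the ratio of the means was 1.24. The 6 primary-wall genes summed to 774, 778 and 778 TPM in osino80, against 718, 716 and 711 TPM in WT, with a ratio of 1.09. Both sums were higher in every osino80 library, the secondary one by more. The log2 ratio of the secondary over the primary sum was -1.44, -1.41 and -1.44 in osino80, against -1.64, -1.62 and -1.61 in WT. Its means of -1.43 ± 0.02 in osino80 and -1.62 ± 0.02 in WT (SD, n = 3) differed by 0.19. In shares, secondary-wall transcripts made up 27.1% ± 0.210 of all cellulose synthase TPM in osino80 and 24.5% ± 0.201 in WT (SD, n = 3). These sums run over chosen genes, so they are given without a test. In RNA from many cell types together, more cells that build a secondary wall and more transcript per such cell cannot be told apart.

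**Figure D3:**
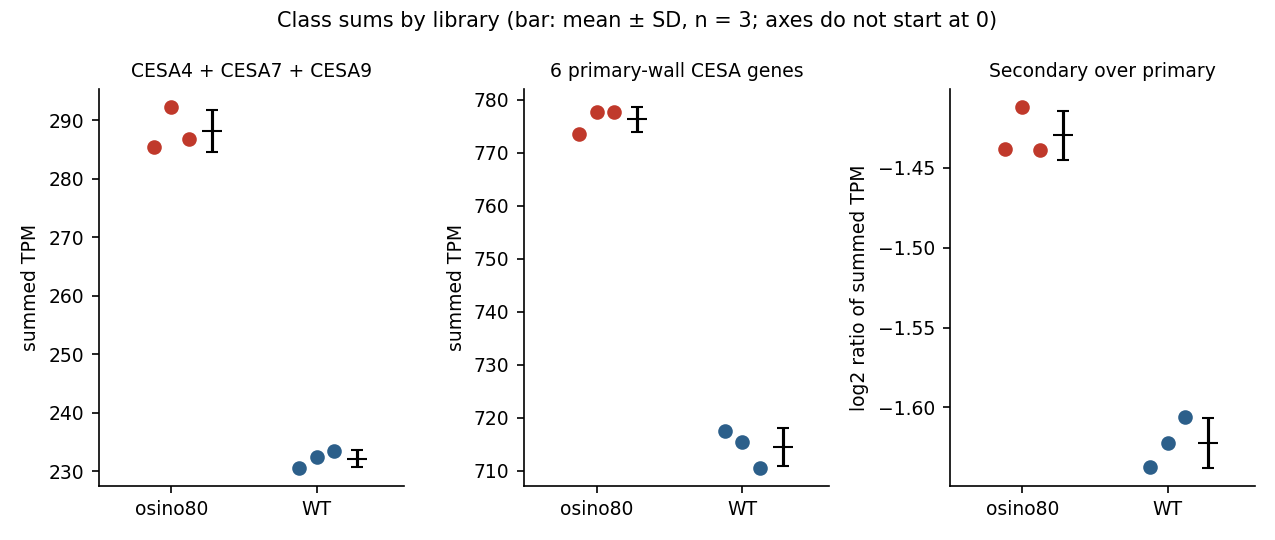
Summed TPM of the secondary-wall genes (left), summed TPM of the primary-wall genes (middle) and the log2 ratio of these sums (right) are plotted with 1 point per library and the mean ± SD (n = 3); axes do not start at 0. All osino80 points lie above all WT points in each panel, and the log2 ratio moves by 0.19.

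The shares of some genes within each class also differed. Within the secondary-wall sum CESA4 held 41.5% ± 0.749 in osino80 and 40.5% ± 0.232 in WT (SD, n = 3). CESA9 held 26.1% ± 0.609 in osino80 and 25.6% ± 0.446 in WT, and CESA7 held 32.3% ± 0.450 in osino80 and 33.9% ± 0.658 in WT. Only the share of CESA7 was smaller in the mutant, at 31.8% to 32.7% in the osino80 libraries against 33.1% to 34.4% in the WT libraries. The shares of CESA4 and CESA9 overlapped between genotypes. Within the primary-wall sum CESA8 held 27.2% ± 0.177 in osino80 and 25.9% ± 0.189 in WT. CESA6 held 5.27% ± 0.0515 in osino80 and 6.38% ± 0.102 in WT, and CESA2 held 3.42% ± 0.0852 in osino80 and 3.95% ± 0.0135 in WT. The mean shares of CESA1, CESA3 and CESA5 were larger in osino80 by 0.0914, 0.181 and 0.0525 percentage points. In each of these shares the libraries overlapped between genotypes. Together CESA1, CESA3 and CESA8, grouped after their values were seen, held 86.0% ± 0.209 of the primary-wall sum in osino80 and 84.5% ± 0.0907 in WT. The log2 ratio of their sum over that of CESA2, CESA5 and CESA6 was 2.62 ± 0.03 in osino80 and 2.44 ± 0.01 in WT (SD, n = 3), a difference of 0.18, about as large as the 0.19 between the classes.

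Ratios between single genes differed both between the classes and within the primary-wall class. For all 18 pairs of a primary-wall with a secondary-wall gene, the TPM ratio of primary over secondary was lower in every osino80 library than in every WT library. The difference in log2 ratio ranged from -0.50 for CESA6 over CESA4 to -0.05 for CESA8 over CESA7. Within the primary-wall class 11 of 15 pairs did not overlap, with differences from -0.35 for CESA6 over CESA8 to 0.29 for CESA5 over CESA6. All 8 pairs that set CESA2 or CESA6 against one of CESA1, CESA3, CESA5 and CESA8 were among them. Their outcome was fixed by the single genes. CESA2 and CESA6 were lower in TPM in every osino80 library, and the genes set against them were higher. The same holds for CESA2 or CESA6 over a secondary-wall gene. How often pairs of other genes overlap was not counted. The 4 pairs that overlapped were CESA1 with CESA3, CESA1 with CESA5, CESA3 with CESA5 and CESA5 with CESA8. Within the secondary-wall class the ratio of CESA4 to CESA7 did not overlap, with a difference of 0.10, while the ratio of CESA4 to CESA9 differed by 0.01 with overlapping libraries. Pairs share genes and are not independent.

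**Figure D4:**
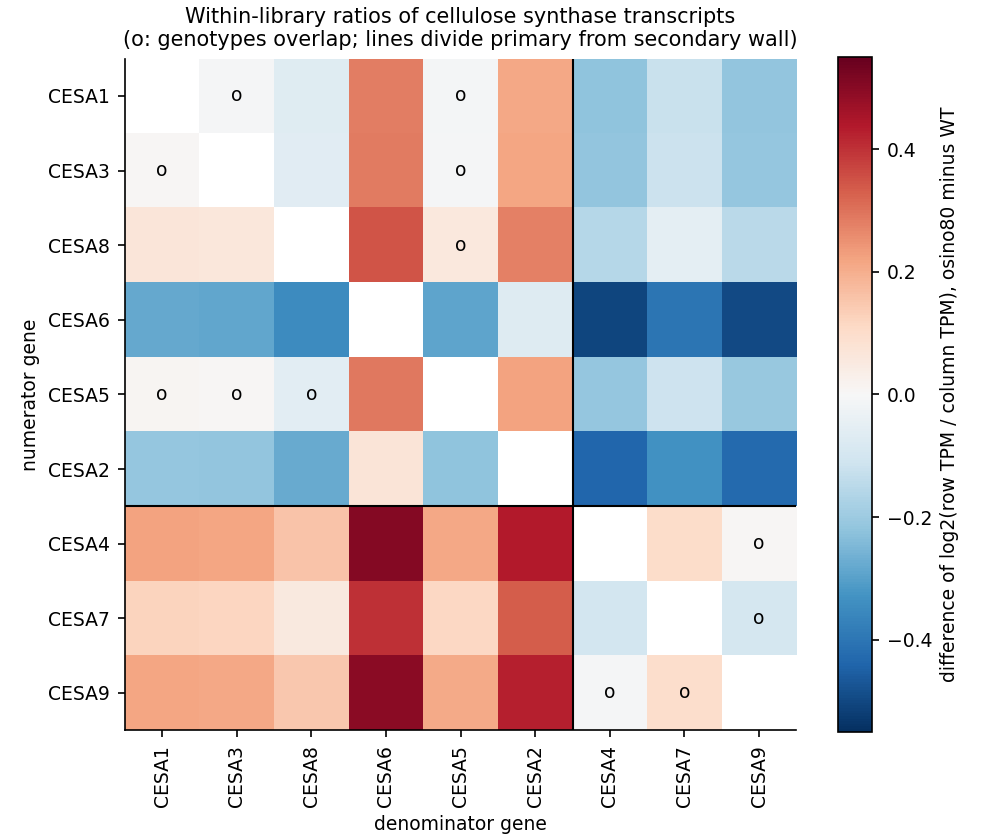
Each cell gives the difference, osino80 minus WT, in the mean log2 ratio of TPM of the row gene over the column gene; a circle marks pairs whose libraries overlap between genotypes, and lines divide the classes. The primary-over-secondary block is blue throughout, from -0.50 to -0.05, and the rows of CESA6 and CESA2 are the darkest in it.

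Further CESA loci added little. CESA11 had 54, 28 and 38 counts in osino80, against 38, 40 and 42 counts in WT, and its log2 fold change of 0.09 ± 0.36 (SE), with an adjusted p from edgeR of 0.877, did not pass. CESA10 had 2, 8 and 4 counts in osino80, against 2, 10 and 3 counts in WT, and was not tested.

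Proteins that act with cellulose synthases were led by genes known from other brittle culm mutants. Of 7 tested genes 4 rose and 3 did not pass, with a median log2 fold change of 0.12, beside 37.6% of all tested genes and 62.6% of abundant ones that passed. BC1, a COBRA-like protein that binds cellulose and aids its assembly, had 56.3, 57.8 and 55.6 CPM in osino80, against 41.9, 43.3 and 42.8 CPM in WT, a log2 fold change of 0.41 ± 0.04 (SE), and the adjusted p from edgeR was 4.54e-22. BC15, a chitinase-like protein needed for normal cellulose content, had 107 ± 2.21 CPM in osino80 and 88.6 ± 3.07 CPM in WT, a log2 fold change of 0.28 ± 0.03, and the adjusted p from edgeR was 5.12e-19. The dynamin gene BC3 changed by 0.12 ± 0.03 and BC14, a nucleotide sugar transporter, by 0.14 ± 0.05. BC14 was no longer called without osino80 replicate 2 (edgeR adjusted p = 0.122), without WT replicate 1 (0.0922) and on TPM (0.0701 and 0.0691), with 0.00803 to 0.122 across its alternatives. The genes that did not pass were the kinesin gene BC12 at 0.03 ± 0.03, BC10 at -0.05 ± 0.09 and the endoglucanase gene GLU1 at -0.02 ± 0.05.

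Regulators of the secondary wall had 4 of 7 tested genes higher and 3 that did not pass, with a median log2 fold change of 0.18, beside 37.6% of all tested genes that passed. MYB103, a MYB factor known to bind promoters of secondary-wall CESA genes, had 6.86 ± 0.310 CPM in osino80 and 4.56 ± 0.689 CPM in WT (SD, n = 3), a log2 fold change of 0.59 ± 0.12, and the adjusted p from edgeR was 5.03e-06. KNAT7, a KNOX homeobox gene of the same network, had 42.6 ± 2.16 CPM in osino80 and 32.9 ± 1.75 CPM in WT (edgeR adjusted p = 8.49e-15). The NAC switch gene SWN1 changed by 0.20 ± 0.05 and MYB61 by 0.16 ± 0.04 on the log2 scale. The NAC gene SWN2 at -0.02 ± 0.09, MYB46 at 0.18 ± 0.27 and MYB58/63 at -0.03 ± 0.07 did not pass, and MYB46 had only 1.08 CPM in osino80 and 0.952 CPM in WT.

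Genes for other polymers of the secondary wall were listed too. In xylan synthesis 3 of 4 tested genes rose (median of the 4 log2 fold changes 0.16), beside 62.6% of the abundant genes that passed in either direction. IRX10 rose by 0.29 ± 0.03 (edgeR adjusted p = 2.25e-16), IRX14 by 0.13 ± 0.02 and IRX9L by 0.08 ± 0.03 on the log2 scale. IRX9L was no longer called without osino80 replicate 1 (edgeR adjusted p = 0.119), osino80 replicate 2 (0.0752) or WT replicate 3 (0.277) and on TPM (0.101 with a pseudocount of 0.1), with 0.00675 to 0.277 across its alternatives, and IRX9 at 0.19 ± 0.11 did not pass. In lignin synthesis of 8 tested genes, 3 were higher, 1 was lower and 4 did not pass, with a median of 0.04. All 8 averaged above 50 CPM, where 62.6% of tested genes passed, against 37.6% of all tested genes. CAld5H1, the coniferaldehyde hydroxylase gene of syringyl lignin, had 56.0 ± 2.85 CPM in osino80 and 44.1 ± 1.02 CPM in WT (SD, n = 3), and its log2 difference of 0.34 ± 0.04 (SE; edgeR adjusted p = 3.00e-16) was as large as that of CESA4. The methyltransferase gene CAldOMT1 changed by 0.09 ± 0.01, the alcohol dehydrogenase gene CAD2 by 0.12 ± 0.03 and the ligase gene 4CL3 by -0.06 ± 0.02. CAD2 was no longer called without osino80 replicate 1 (edgeR adjusted p = 0.0602) or WT replicate 3 (0.138), with 0.000498 to 0.138 across its alternatives.

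Supply of UDP-glucose, the substrate of cellulose synthase, did not move one way. Of 7 tested genes, 2 were higher, 3 were lower and 2 did not pass, with a median of 0.04. By comparison 37.6% of all tested genes passed, and 62.6% of the abundant ones, to which SUS1, SUS2, SUS4 and UGP1 belong. SUS1, the most abundant sucrose synthase gene of the list, had 1283 ± 7.26 CPM in osino80 and 1189 ± 17.6 CPM in WT (SD, n = 3), a log2 fold change of 0.11 ± 0.01. SUS4 was lower, at 69.9 ± 1.47 CPM in osino80 and 91.9 ± 3.19 CPM in WT (edgeR adjusted p = 2.19e-30). UGP1, a UDP-glucose pyrophosphorylase gene, was also lower, at 253 ± 4.29 CPM in osino80 and 294 ± 5.03 CPM in WT. The change of SUS2, -0.05 ± 0.02, was no longer called without osino80 replicate 2 (edgeR adjusted p = 0.0634) or osino80 replicate 3 (0.0929) and on TPM (0.146 and 0.154), with 0.00268 to 0.154 across its alternatives. UGP2 passed with 0.363 ± 0.0673 CPM in osino80 and 0.128 ± 0.0614 CPM in WT, a call lost without osino80 replicate 1 (edgeR adjusted p = 0.0590), osino80 replicate 2 (0.111) or WT replicate 2 (0.160), without the low-count filter (0.0612) and on TPM with a pseudocount of 1 (0.0619), with 0.0196 to 0.160 across its alternatives.

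The cellulose synthase-like genes, relatives that make other wall glucans and mannans, mostly did not pass. Of 15 tested genes 3 rose and 12 did not pass, with a median of 0.04, against 37.6% of all tested genes that passed. Their median abundance was 9.51 CPM, and only CSLF6 and CSLH1 averaged above 50 CPM, so small differences were harder to call than in the cellulose synthase genes. CSLF6, the main synthase of mixed-linkage glucan in grasses, had 440 ± 2.36 CPM in osino80 and 398 ± 3.55 CPM in WT (SD, n = 3; log2 fold change 0.14 ± 0.02, edgeR adjusted p = 2.08e-13). CSLD2 changed by 0.27 ± 0.05 and CSLA1 by 0.18 ± 0.06 on the log2 scale, the second of which was no longer called without osino80 replicate 3 (edgeR adjusted p = 0.124) and on TPM (0.123 and 0.118), with 0.00106 to 0.124 across its alternatives. CSLF4 had 0.544 ± 0.159 CPM in osino80 and 0.308 ± 0.0592 CPM in WT and did not pass (edgeR adjusted p = 0.136).

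**Figure D5:**
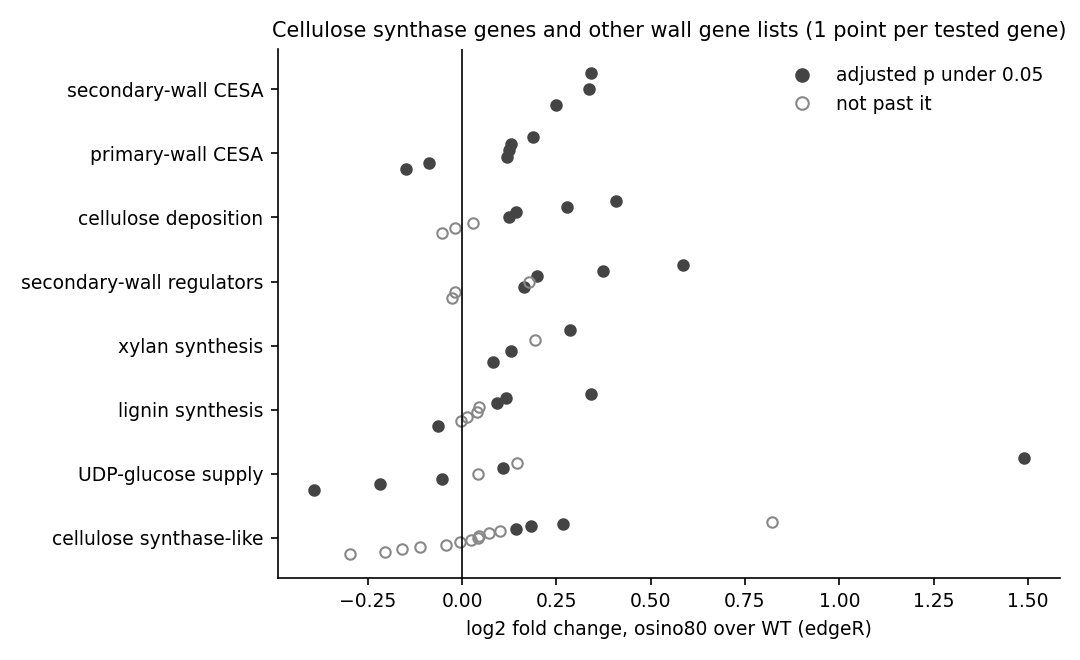
Each point is the log2 fold change, osino80 over WT, of 1 tested gene, by wall gene list; filled points passed the edgeR test at an adjusted p of 0.05 and open points did not. The 3 secondary-wall CESA genes lie at 0.25 to 0.34. The filled points of cellulose deposition, regulators, xylan and cellulose synthase-like genes lie right of 0. Those of primary-wall CESA genes, lignin and UDP-glucose supply lie on both sides.

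Markers of other cell populations were read beside these results, where 37.6% of all tested genes and 62.6% of abundant ones passed. Of 4 root markers Lsi1 rose by 0.35 ± 0.07 on the log2 scale (edgeR adjusted p = 9.77e-07), while RCc3 and PIP2.5 did not pass and had at most 1.02 CPM in either genotype. Lsi2, which was not tested, had 0 counts in each osino80 library and 12, 14 and 8 counts in WT. The summed root markers ranged from 20.9 to 21.8 TPM in osino80 and from 16.4 to 17.4 TPM in WT. Most of this sum was Lsi1, with means of 19.7 TPM in osino80 and 15.2 TPM in WT. Of 5 markers of dividing cells, whose new walls are primary, 1 rose and 4 did not pass, at a median abundance of only 7.10 CPM. Their sums were 42.5 to 44.0 TPM in osino80 and 40.8 to 42.9 TPM in WT. The exception, the cyclin gene CYCB2.1, changed by 0.35 ± 0.14 and was no longer called without osino80 replicate 2 (edgeR adjusted p = 0.113), osino80 replicate 3 (0.159), WT replicate 2 (0.147) or WT replicate 3 (0.0983) and on TPM (0.0787 and 0.0801), with 0.00769 to 0.159 across its alternatives. Of 5 leaf markers the chlorophyll-binding gene CAB2R rose by 0.17 ± 0.01, the Rubisco genes RBCS2, RBCS3 and RBCS4 fell by 0.09, 0.09 and 0.05 on the log2 scale, and CAB1R did not pass (edgeR adjusted p = 0.203). CAB1R did pass without osino80 replicate 1 (0.0443), osino80 replicate 3 (1.46e-08), WT replicate 1 (5.80e-07) or WT replicate 2 (0.00901), and also with the replicate number as a block (1.84e-07), DESeq2 (0.0164), limma voom (2.87e-06), halved counts (9.56e-06) and no low-count filter (4.45e-05), with 1.46e-08 to 0.371 across its alternatives. The Rubisco copies are near-identical, so how reads were split among them is uncertain. The part of these markers in the cellulose synthase result was not tested.

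Likeness in pattern was measured against the mean log2 CPM of CESA4, CESA7 and CESA9 over the 6 libraries. Among the listed wall and marker genes, BC1 had the highest Pearson r at 0.998, followed by CSLF6 at 0.994 and CESA8 at 0.994. Only 0.124% of the tested genes had an r as high as that of BC1, 0.682% as high as CSLF6 and 0.751% as high as CESA8. The libraries form a cluster per genotype, so such an r chiefly measures the difference between genotypes, and it is given as a description with no test. After the genotype means were taken out, r was 0.77 for BC1, 0.44 for CSLF6 and -0.67 for CESA8, over the same 6 libraries.

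The calls of loci numbered next to the cellulose synthase genes were mixed. These loci were not matched to the cellulose synthase genes in abundance. Of the 54 tested loci that flank the 9 genes in the order of locus numbers, 3 on each side, 11 were higher, 7 lower and 36 did not pass, against the 37.6% of all tested genes that passed. Beside CESA4 2 of 6 neighbours were higher, as were 2 of 6 beside CESA7, and beside CESA9 2 of 6 were lower. CESA6, which was lower, had 3 neighbours that were higher and 2 that were lower.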

How the data were processed

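The authors deposited raw counts per locus and TPM for 3 osino80 and 3 WT libraries; the labels' protocols name a stranded mRNA kit, and the submitters' processing notes name cutadapt, HISAT2, SAMtools and featureCounts. Not given in the sources used here are versions, genome build, annotation, strand setting, treatment of multi-mapping reads and the TPM method, so the division of reads among similar CESA genes or overlapping antisense genes is unknown. In each library 82.4% to 83.7% of counts between 1 and 20 were even, the excess expected if read mates were counted separately, so counting errors are larger than the counts imply.

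Counts were tested with edgeR 4.0.16 (R 4.3.3): filterByExpr, TMM, estimateDisp, glmQLFit with robust=TRUE and glmQLFTest on genotype. CPM is TMM-scaled, and the SE is the log2 fold change divided by the square root of F. The procedure was tested on simulated counts with a common dispersion for all genes and no excess of even values. The real counts differ in both, so that test cannot show how well the p-values hold here. Alternatives were DESeq2 1.42.0, limma 3.58.1 (voom, and log2 TPM plus 1 or 0.1), other scalings and filters, halved counts, a replicate block and each library left out.

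Members and gene lists were chosen with earlier results of these data known. The text names the members, OsINO80, up to 4 tested genes per list with the smallest p, and any changed by 1.5-fold or more; other list genes, the class limit of 50 CPM and the flanking loci were chosen after values were seen. Locus numbers come from general knowledge. The reference table (ASM3414082v1) places all 9 CESA names on the chromosome of their locus number, and the 4 pairs that share a chromosome stand in the same order. Of all 80 names it places 43 so and 2 (C3H1 and HCT4) on another chromosome, 2 match several genes and 33 are not found. Coordinates and sequences are not used here.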

Additional observations from a re-analysis of the deposited data

How the results depend on the processing

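Across 16 alternatives, 8 of the 9 cellulose synthase genes kept their direction and call. CESA2 kept its direction and lost its call in 5, so the count of primary-wall genes that fell was 1 on TPM with either pseudocount, against 2, and 1 to 2 with a library left out; the cause was not tested. With the replicate number as a block 9 cellulose synthase genes and 9329 genes in all passed, against 9363 without the block, and 9232 genes were shared. Deviations from the genotype means were uncorrelated between libraries of like number (0.0106, -0.0235 and 0.00506), and nothing in the labels pairs them. The count of all genes ranged from 7410 on log2(TPM + 1) to 9644 with DESeq2. The difference in the log2 ratio of secondary over primary sums, 0.19, was 0.26 as a mean of log2 TPM, 0.18 without CESA6, 0.22 without CESA8, 0.17 without CESA4 and 0.23 without CESA7, and 0.18 to 0.20 with a library left out. CAB1R gained a call in 9 of 16 alternatives, the block among them (adjusted p = 1.84e-07), and CSLD1, C3H1 and HCT4 gained one with a single library left out. Depth did not limit the 9 genes, each with at least 4132 counts per library, but CESA10 and CESA11 were too low to read small differences.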
